A study of Mus musculus with 3 samples.

Results

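The binding of CELF1 to the mRNAs of 9 genes that control entry into the cell cycle was examined: the D-type cyclins Ccnd1, Ccnd2 and Ccnd3, the cyclin-dependent kinases Cdk4 and Cdk6, the kinase inhibitors Cdkn1a (p21), Cdkn1b (p27) and Cdkn1c (p57), and Rb1, which encodes the retinoblastoma protein. They were chosen by name for their place in this pathway, with earlier results of these data known, and their binding sites were found by the Entrez identifier that each deposited CLIP cluster carries. A CLIP cluster is a short stretch of RNA with more crosslinked reads than its gene's expression and length would account for. Of 72222 clusters in 8037 genes, 86 belonged to 7 of the 9 genes, whereas Cdk4 and Cdkn1c had no cluster in any library.

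CELF1 was crosslinked with UV light at 254 nm and precipitated with the monoclonal antibody 3B1 from 3 sources, with 1 library from each. C2C12 myoblasts are an established line of mouse muscle precursor cells that divide in culture. Heart ventricle and muscle were taken from C57/BL6 mice aged 16 weeks, and the labels do not say which muscle. The endogenous protein was measured throughout, and the labels of these libraries give no transgene or treatment. The C2C12 library had 5115 clusters in 2754 genes, the heart library 42263 in 6857 genes and the muscle library 24844 in 5341 genes. Median cluster widths were 38 nt in C2C12, 55 nt in heart and 54 nt in muscle. With 1 library per source, no difference has a replicate check, and every interval and p-value covers counting error only, for these libraries and not for the tissues in general.

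D-type cyclins are made in response to growth signals. They bind and activate CDK4 or CDK6, which phosphorylate the retinoblastoma protein and so release the E2F transcription factors that drive DNA synthesis. p21, p27 and p57 bind cyclin-kinase complexes, and in muscle p21 and the retinoblastoma protein are known for holding differentiated cells out of the cycle. CELF1 binds GU-rich RNA, often around the triplet UGU. In the nucleus it acts on splicing, and in the cytoplasm it acts on the decay and translation of mRNAs through their 3′ untranslated regions (3′ UTRs). Cyclin D1 and p21 mRNAs are known targets of CELF1 in other cells, and a cyclin D3 and CDK4 complex is known to phosphorylate CELF1.

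The sequences below lie inside CELF1 clusters of these mRNAs, and the base at which the protein was crosslinked is not given by the clusters. Each is the stretch of 30 nt with the most UGU triplets inside a part of a cluster common to the most libraries. Where a gene had several such parts, the stretch with the most UGU was taken, except that both are shown for Ccnd1. The UGU content is therefore no finding. Sequences are written 5′ to 3′ as RNA from the mm9 assembly, with UGU in capitals. The first 3 lie in the only places where clusters of C2C12, heart and muscle all overlapped, 2 of them in the Ccnd1 3′ UTR and 1 in the Ccnd2 3′ UTR.
Ccnd1, 781 nt after the coding sequence, chr7:152117705-152117734, minus strand: ccuauuuUGUagcucUGUuuagagagaugc
Ccnd1, 2278 nt after the coding sequence, chr7:152116208-152116237, minus strand: cgucuUGUuuUGUGUuaauuacagcauUGU
Ccnd2, 1851 nt after the coding sequence, chr6:127078476-127078505, minus strand: agguagauggucgagagacgaguucucUGU
The next 3 lie where clusters of a pair of libraries overlapped, in C2C12 and heart for Cdk6 and in heart and muscle for Cdkn1a and Ccnd3.
Cdk6, 3′ UTR, 213 nt after the coding sequence, chr5:3521001-3521030, plus strand: acuUGUuUGUuuUGUcUGUuUGUuucaaga
Cdkn1a, 3′ UTR, 302 nt after the coding sequence, chr17:29236637-29236666, plus strand: cucUGUGUuuccuauaccggaggaacaguc
Ccnd3, intron, chr17:47690990-47691019, plus strand: UGUcUGUuuuauaagUGUuugcaUGUaUGU
The last 2 show intron sites, shared by heart and muscle in Rb1 and seen in heart alone in Cdkn1b.
Rb1, intron, chr14:73676136-73676165, minus strand: uUGUGUaUGUcUGUUGUuugagcUGUGUGU
Cdkn1b, intron, chr6:134871428-134871457, plus strand: aaaacuuaaaaUGUcUGUcUGUcUGUcUGU
The sites range from 1 UGU in the Ccnd2 stretch to 8 in the Rb1 stretch, counted with overlaps.

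In C2C12, 4 of the 9 genes had a cluster, against a background of 12.1% of 22380 annotated protein-coding genes. In heart 7 of the 9 did, against 30.4% of protein-coding genes, and in muscle 6 of the 9, against 23.6%. This background takes in every annotated gene, whether or not the source expresses it, so the comparison does not measure enrichment. The 9 genes together held 19 clusters or 0.371% of the C2C12 library (exact 95% interval 0.224 to 0.579%), 49 or 0.116% of the heart library (0.0858 to 0.153%), and 18 or 0.0725% of the muscle library (0.0429 to 0.114%). In bulk samples such as these, fewer cells of a type and less RNA per cell cannot be told apart. Ccnd1 and Cdk6 made up most of the C2C12 clusters, and Ccnd2 made up the largest part of the heart clusters.

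**Figure D1:**
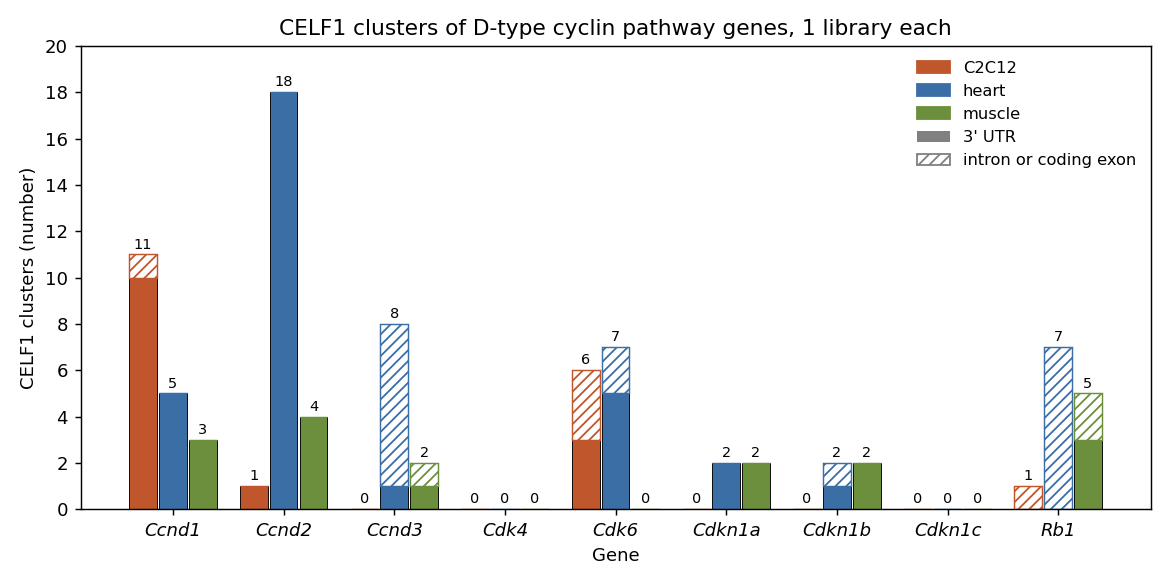
Number of CELF1 clusters (vertical axis) of each of the 9 genes (horizontal axis) in C2C12 myoblasts, heart and muscle, 1 library each. Solid bars are clusters in the 3′ UTR and hatched bars are clusters in introns or coding exons. Ccnd1 has 11 clusters in C2C12 and Ccnd2 has 18 in heart, while Cdk4 and Cdkn1c have 0 in every library.

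Ccnd1 encodes cyclin D1, the D-type cyclin most closely tied to growth-factor signalling (Entrez 12443, mm9 chromosome 7, 152115836 to 152125774, minus strand). Ccnd1 had 11 clusters in C2C12, 5 in heart and 3 in muscle, although the C2C12 library was the smallest of the 3. That was 0.215% of the C2C12 clusters (exact 95% interval 0.107 to 0.384%), 0.0118% of the heart clusters (0.00384 to 0.0276%) and 0.0121% of the muscle clusters (0.00249 to 0.0353%). The C2C12 share was higher than the heart share by an odds ratio of 18.2 (95% interval 5.83 to 66.9, Fisher's exact test, adjusted p = 4.02e-05 over 7390 genes). It was also higher than the muscle share, by an odds ratio of 17.8 (4.71 to 99.6, Fisher's exact test, adjusted p = 0.000369 over 6153 genes). The test treats clusters as separate draws, whereas clusters of 1 gene are not independent of each other, so these p-values are too small. Of all genes tested, 0.609% were called as higher in C2C12 than in heart and 0.569% as higher in C2C12 than in muscle. Between heart and muscle the Ccnd1 shares gave an odds ratio of 0.980 (0.191 to 6.31).

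The same held within the 3′ UTR, the part of the mRNA where CELF1 is known to promote decay. Ccnd1 had 10 of the 1735 3′ UTR clusters of C2C12, 5 of 13909 in heart and 3 of 12414 in muscle. The odds ratio was 16.1 for C2C12 over heart (95% interval 5.01 to 60.2, Fisher's exact test, adjusted p = 0.00214) and 24.0 for C2C12 over muscle (6.16 to 136, Fisher's exact test, adjusted p = 0.000592). Among 4383 genes with a 3′ UTR cluster in C2C12 or heart, Ccnd1 was the only gene called in this pair, a background of 0.0228%. Against muscle, 4 of 3916 genes were called (0.102%), the others, named after their values were seen, being Msn, Actn1 and Khsrp. No gene had more 3′ UTR clusters than Ccnd1 in C2C12, where 1139 genes had any, whereas Ccnd1 was tied with others at rank 703 of 4149 in heart and at rank 1186 of 3613 in muscle.

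These calls depend on how neighbouring clusters are counted. Of the 10 C2C12 clusters in the Ccnd1 3′ UTR, 5 lay side by side between 766 and 1084 nt after the coding sequence. With clusters of a gene less than 50 nt apart counted as 1, Ccnd1 had 6 3′ UTR clusters in C2C12, 4 in heart and 3 in muscle, and neither 3′ UTR difference passed (Fisher's exact test, adjusted p = 1.00 for C2C12 over heart and 0.693 for C2C12 over muscle). Over all gene parts the difference from heart still passed by Fisher's exact test (7 clusters in C2C12 against 4 in heart, adjusted p = 0.0215), and the difference from muscle did not (7 in C2C12 against 3 in muscle, adjusted p = 0.0876). The bases covered do not depend on this count. Clusters covered 609 nt or 22.7% of the 2679 nt Ccnd1 3′ UTR in C2C12, 476 nt or 17.8% in heart, and 161 nt or 6.01% in muscle.

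**Figure D2:**
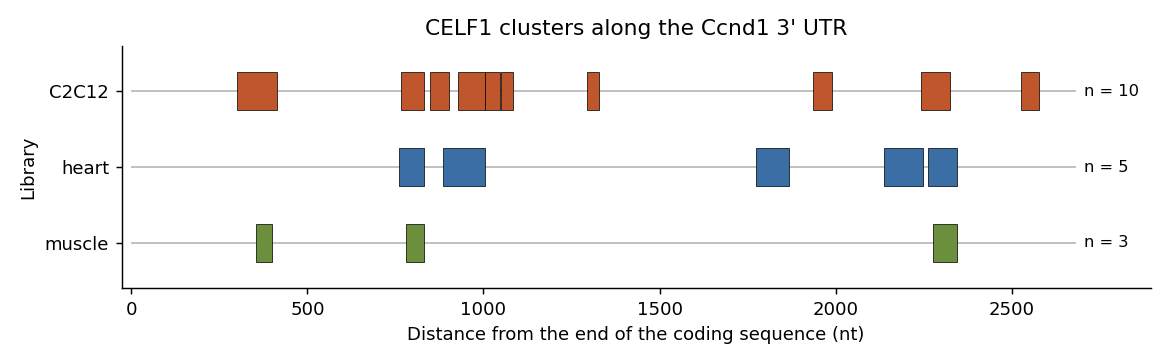
Positions of CELF1 clusters along the Ccnd1 3′ UTR in nt from the end of the coding sequence (horizontal axis), with 1 row per library (C2C12, heart, muscle) and 1 box per cluster. The row of C2C12 holds 10 boxes, 5 of them side by side between 766 and 1084 nt, and clusters of all 3 libraries meet at 781 nt and at 2278 nt.

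Along the Ccnd1 3′ UTR, 4 of the 10 C2C12 clusters overlapped a heart cluster and 3 overlapped a muscle cluster, while 4 of the 5 heart clusters and all 3 muscle clusters overlapped one of C2C12. The 2 stretches bound in every library were those at 781 and 2278 nt after the coding sequence, whose sequences are the first pair printed above. C2C12 also had the only cluster of these genes in a coding exon, a 40 nt stretch of Ccnd1 (152120019 to 152120058) with no UGU. Part of the Ccnd1 3′ UTR is overlapped on the other strand by Oraov1. In that part lay 3 Ccnd1 clusters in C2C12, 3 in heart and 1 in muscle, and no library had a cluster on the Oraov1 strand there. Without them the 3′ UTR difference still passed, with 7 clusters in C2C12 against 2 in heart (Fisher's exact test, adjusted p = 0.0261) and 7 in C2C12 against 2 in muscle (adjusted p = 0.0230). Those 7 include the 5 clusters side by side between 766 and 1084 nt, counted separately. The difference was not tested with these neighbours merged as well.

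Ccnd2 encodes cyclin D2 (Entrez 12444, mm9 chromosome 6, 127075797 to 127101066, minus strand). Ccnd2 had 1 cluster in C2C12, 18 in heart and 4 in muscle, and all 23 were in its 3′ UTR, which at 4559 nt is the longest of the 9. The heart count tied it with others at rank 24 of the 4149 genes with a 3′ UTR cluster in that library. Heart clusters were spread from 6 to 4364 nt after the coding sequence and covered 1371 nt or 30.1% of the 3′ UTR, against 45 nt or 0.987% in C2C12 and 188 nt or 4.12% in muscle. Per kb of 3′ UTR, Ccnd2 had 0.219 clusters in C2C12 (exact Poisson 95% interval 0.00555 to 1.22), 3.95 in heart (2.34 to 6.24) and 0.877 in muscle (0.239 to 2.25). Ccnd1 had 3.73 clusters per kb in C2C12 (1.79 to 6.86), 1.87 in heart (0.606 to 4.36) and 1.12 in muscle (0.231 to 3.27). The intervals of Ccnd1 in C2C12 and Ccnd2 in heart overlapped. Clusters per kb are not adjusted for library size, so this overlap does not show similar binding. As a share of each library's 3′ UTR clusters, Ccnd1 had 0.576% in C2C12 and Ccnd2 had 0.129% in heart.

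The Ccnd2 counts did not pass a test between libraries once their sizes were taken into account. As a share of all clusters, Ccnd2 took 0.0196% in C2C12 (exact 95% interval 0.000495 to 0.109%), 0.0426% in heart (0.0252 to 0.0673%) and 0.0161% in muscle (0.00439 to 0.0412%). The odds ratio of heart over muscle was 2.65 over all clusters (0.871 to 10.7, Fisher's exact test, adjusted p = 0.786), where 1.80% of 7625 genes were called in either direction. Within 3′ UTR clusters it was 4.02 (1.32 to 16.3, Fisher's exact test, p = 0.00873 and adjusted p = 1.00). In that pair Fisher's exact test called 0 of 4892 genes (0%), with 120 at an unadjusted p under 0.05. For C2C12 over heart the odds ratio was 0.459 (0.0110 to 2.91), an interval that leaves room for a difference in either direction.

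**Figure D3:**
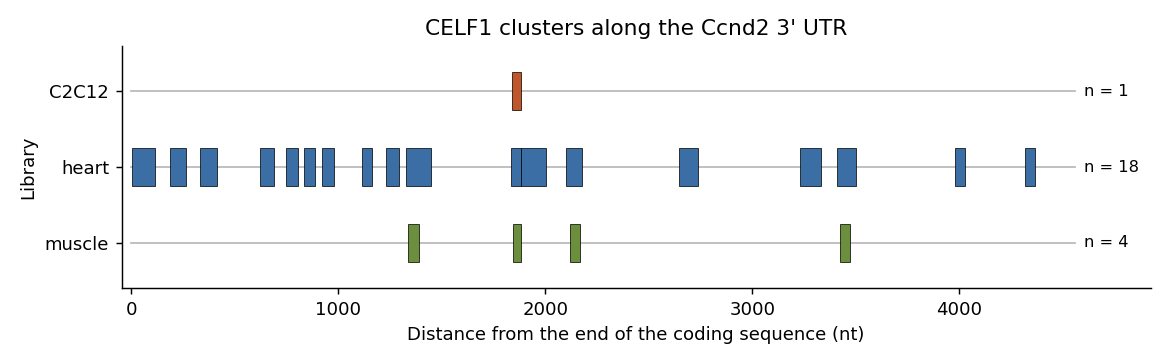
Positions of CELF1 clusters along the Ccnd2 3′ UTR in nt from the end of the coding sequence (horizontal axis), with 1 row per library (C2C12, heart, muscle) and 1 box per cluster. The 18 heart boxes run from 6 to 4364 nt, and the single C2C12 box and all 4 muscle boxes lie over heart boxes.

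The 1 C2C12 cluster and all 4 muscle clusters of Ccnd2 overlapped heart clusters, against 33.9% of all C2C12 clusters and 52.8% of all muscle clusters. Those backgrounds take in every gene part, whereas all Ccnd2 clusters were in the 3′ UTR, so they are not matched. Of 17 distinct stretches of Ccnd2, 13 were seen in heart alone (76.5%), against 33.3% of 18537 stretches in the 3′ UTRs of all genes. This difference was not tested. The share largely follows from the counts, 18 clusters in heart against 1 in C2C12 and 4 in muscle, and so says little about position. The stretch common to all libraries held a single UGU, as printed above. UGUUUGUUUGU, a GU-rich element known from unstable mRNAs, occurred 4 times in the Ccnd2 3′ UTR, counted with overlaps on the sense strand. It lay in 1 heart cluster (1330 to 1449 nt after the coding sequence) and in the muscle cluster beneath it (1338 to 1392 nt). The genes whose 3′ UTR counts were most like those of Ccnd2, by the distance between square roots of the counts over 3 libraries and 5055 genes, were Sptbn1 (1 in C2C12, 17 in heart and 5 in muscle, distance 0.265), Tmx4 (1, 15 and 5 in the same order, 0.439), Erc1 (1, 14 and 4, 0.501), Clasp1 (1, 14 and 6, 0.673) and Osbpl8 (2, 14 and 5, 0.692).

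Ccnd3 encodes cyclin D3, the D-type cyclin that stays on in differentiating muscle cells (Entrez 12445, mm9 chromosome 17, 47642000 to 47736632, plus strand). Ccnd3 had 0 clusters in C2C12, 8 in heart and 2 in muscle. The 0 in C2C12 allows a share of up to 0.0587%, which is above the shares of 0.0189% in heart and 0.00805% in muscle, so a difference was not detectable at this depth. Its binding sat in a different place from that of the other cyclins. Of the heart clusters, 7 lay in the first intron of the longer Ccnd3 transcript, which spans 73442 nt and precedes the start codon, and 1 of the 2 muscle clusters overlapped them. The remaining cluster in heart and in muscle began at the same base, 399 nt after the coding sequence, in a 3′ UTR of 910 nt. These intron sites were rich in UGU, with 6 to 11 per heart cluster.

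Cdk6 encodes a kinase partner of the D-type cyclins (Entrez 12571, mm9 chromosome 5, 3343893 to 3523218, plus strand). Cdk6 had 6 clusters in C2C12, 7 in heart and 0 in muscle. These were 0.117% of the C2C12 library (exact 95% interval 0.0431 to 0.255%) and 0.0166% of the heart library (0.00666 to 0.0341%). In muscle the count was 0 of 24844 clusters, where the share of 3 clusters is 0.0121% and the exact upper bound is 0.0148%. The C2C12 share was above that of muscle (lower 95% bound of the odds ratio 5.72, Fisher's exact test, adjusted p = 0.00633). The odds ratio over heart was 7.09 (1.97 to 24.6), and this did not pass after adjustment (Fisher's exact test, adjusted p = 0.102). For heart over muscle the lower bound was 0.847 (Fisher's exact test, adjusted p = 0.601).

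The Cdk6 clusters fell into 2 kinds of place. In the 3′ UTR of 2430 nt there were 3 in C2C12, 5 in heart and 0 in muscle. All 3 of C2C12 lay 162 to 451 nt after the coding sequence, under heart clusters, and the remaining 3 of heart lay between 1009 and 1335 nt. The other 3 clusters of C2C12 lay in introns 3, 4 and 5, and none overlapped the 2 intron clusters of heart. They were 35, 35 and 38 nt wide, where the C2C12 library had a smallest width of 35 nt and a median of 38 nt. The call against muscle was lost without them. With introns left out, the counts were 3 in C2C12 against 0 in muscle (a difference of 0.148 percentage points, Fisher's exact test, adjusted p = 0.378). With clusters at least 40 nt wide, they were 2 in C2C12 against 0 in muscle (0.101 percentage points, Fisher's exact test, adjusted p = 0.311). That limit on width also drops a 3′ UTR cluster of 38 nt in C2C12. It lies above the median width in C2C12 (38 nt) and below that in muscle (54 nt). It therefore removed a larger part of the C2C12 library than of the muscle library. Both differences are shares of the clusters kept, so they cannot be set beside the 0.117 percentage points of the whole library. Cdk6 had the most UGU-dense 3′ UTR of the 9 genes, with 3.58 UGU per 100 nt, above 90.8% of 16614 annotated 3′ UTRs of at least 200 nt.

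Cdk4 encodes the other kinase partner of the D-type cyclins (Entrez 12567, mm9 chromosome 10, 126500590 to 126504976, plus strand) and had no cluster. A count of 0 allows a share of up to 0.0587% in C2C12, 0.00710% in heart and 0.0121% in muscle. Its 3′ UTR, at 902 nt in the longest transcript, had 1.44 UGU per 100 nt, against a median of 2.45 over all annotated 3′ UTRs, and only 8.99% of 3′ UTRs had fewer. UGU density of the 3′ UTR did not sort genes with a cluster from genes without one in this small set. The 3′ UTR of Ccnd3 had 1.32 UGU per 100 nt, lower than that of Cdk4. It held 1 cluster in heart and 1 in muscle, and the other Ccnd3 clusters were in an intron. Cdkn1c, which had no cluster, had 2.50. The remaining values ran from 2.25 in Cdkn1a to 2.91 in Ccnd1.

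**Figure D4:**
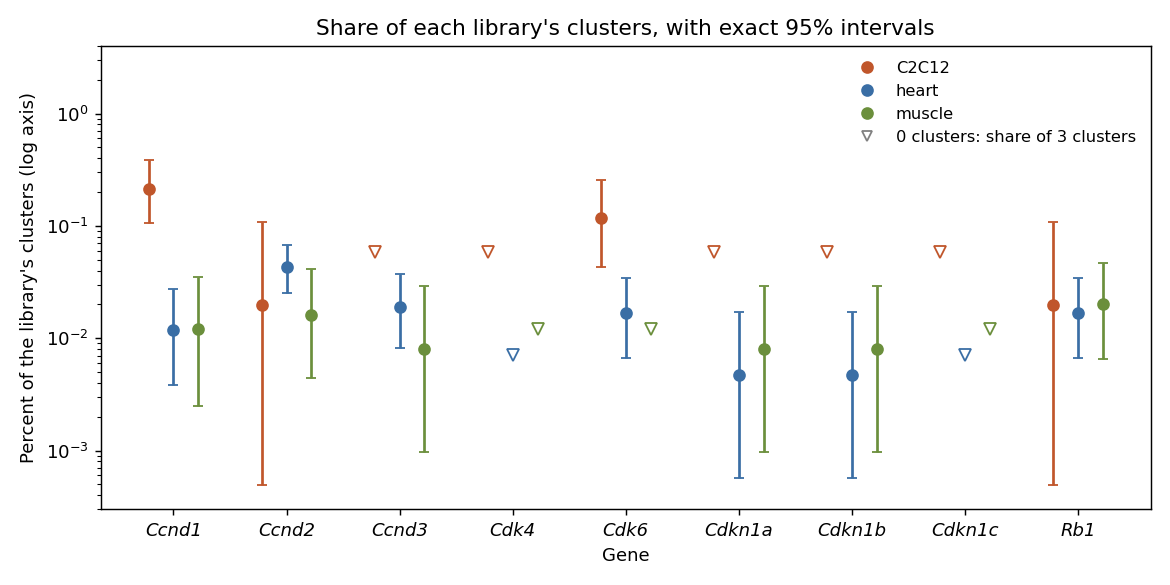
Share of each library's clusters (percent, log axis) that belong to each of the 9 genes, for C2C12, heart and muscle. Points are the shares, bars are exact Clopper-Pearson 95% intervals, and open triangles mark genes with 0 clusters at the share that 3 clusters would make. The C2C12 points of Ccnd1 (0.215%) and Cdk6 (0.117%) lie above the heart intervals, and above the muscle interval of Ccnd1 and the muscle triangle of Cdk6.

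The inhibitors of the Cip/Kip family block cyclin-kinase complexes. Cdkn1a, which encodes p21 (Entrez 12575, mm9 chromosome 17, 29227924 to 29237667, plus strand), had 0 clusters in C2C12, 2 in heart and 2 in muscle, all in its 3′ UTR of 1332 nt. The heart cluster at 281 to 335 nt after the coding sequence overlapped the muscle cluster at 302 to 336 nt, whereas the heart cluster at 1112 to 1167 nt and the muscle cluster at 96 to 146 nt had no partner. Cdkn1b, which encodes p27 (Entrez 12576, mm9 chromosome 6, 134870419 to 134875531, plus strand), also had 0 in C2C12, 2 in heart and 2 in muscle, and here no cluster overlapped one of another library. The muscle clusters lay 278 and 149 nt before the end of the 3′ UTR. Of the heart clusters, 1 lay in the intron, 38 nt from the nearest exon, in a run of UGU triplets printed above, and the other (134872718 to 134872774) lay in a stretch that is 3′ UTR in 1 annotated transcript and intron in the other.

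Cdkn1c, which encodes p57, an inhibitor from an imprinted gene (Entrez 12577, mm9 chromosome 7, 150644255 to 150646955, minus strand), had 0 clusters in every library. The 3 inhibitors together had 0 clusters in C2C12, 4 in heart (0.00946% of the library) and 4 in muscle (0.0161%). A difference was not detectable at this depth, because 0 of 5115 clusters allows a share of up to 0.0587% for each gene in C2C12. The odds ratio for Cdkn1a, C2C12 over muscle, could lie anywhere up to 25.9 by its 95% interval, and that for Cdkn1b likewise.

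Rb1 encodes the retinoblastoma protein, which the D-type cyclin kinases phosphorylate (Entrez 19645, mm9 chromosome 14, 73583480 to 73725629, minus strand). Rb1 had 1 cluster in C2C12, 7 in heart and 5 in muscle, close to the same share of each library at 0.0196% in C2C12, 0.0166% in heart and 0.0201% in muscle. The odds ratio was 1.18 for C2C12 over heart (95% interval 0.0262 to 9.19), 0.971 for C2C12 over muscle (0.0205 to 8.68) and 0.823 for heart over muscle (0.225 to 3.29), so none of these intervals excludes a sizeable difference. The 1 cluster in C2C12 and all 7 in heart were intronic, while muscle had 3 of its 5 in the 3′ UTR of 1712 nt, at 387, 1619 and 1676 nt after the coding sequence. Within 3′ UTR clusters this was 0 of 13909 in heart against 3 of 12414 in muscle (Fisher's exact test, p = 0.105 and adjusted p = 1.00). The 3 clusters lie where Rcbtb2 is annotated on the other strand, and no library had a cluster on that strand there. Of the heart intron clusters, 3 lay in intron 9, where 1 of them overlapped a muscle cluster and held 19 UGU in 102 nt.

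**Figure D5:**
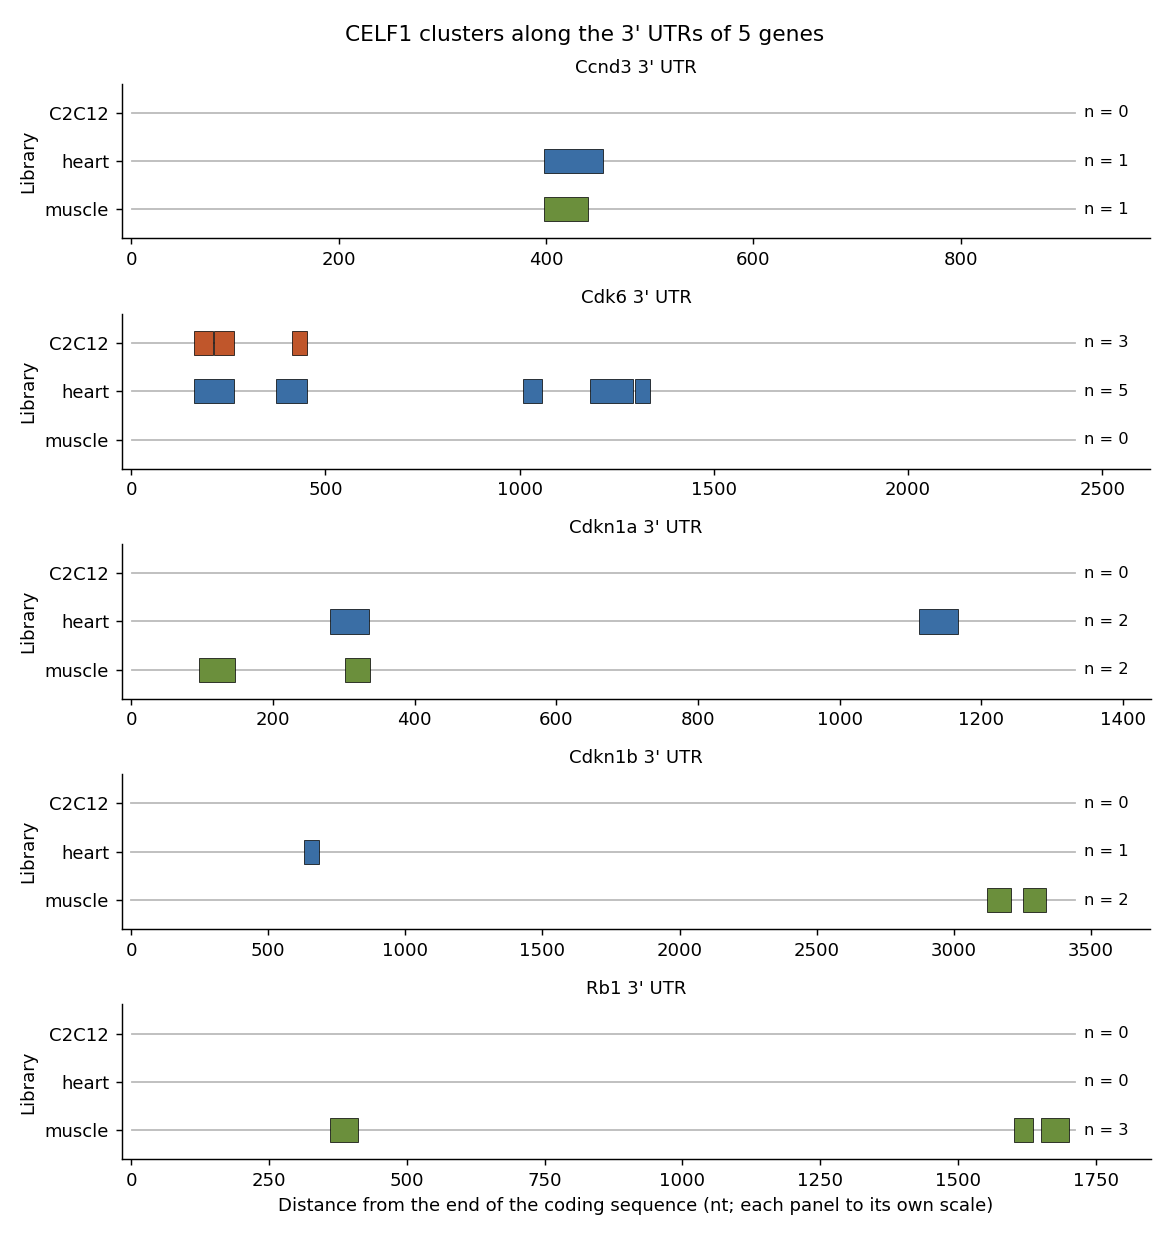
Positions of CELF1 clusters along the 3′ UTRs of Ccnd3, Cdk6, Cdkn1a, Cdkn1b and Rb1 in nt from the end of the coding sequence (horizontal axis, each panel to its own scale), with 1 row per library (C2C12, heart, muscle) and 1 box per cluster. Boxes are seen for Cdk6 in C2C12 (3) and heart (5), for Rb1 in muscle (3), and for Ccnd3, Cdkn1a and Cdkn1b in heart and muscle, and none of these 3′ UTR differences passed the test.

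Across the 9 genes the 3′ UTR held 14 of 19 clusters in C2C12 (73.7%), 32 of 49 in heart (65.3%) and 15 of 18 in muscle (83.3%). Over all genes this share was 33.9% in C2C12, 32.9% in heart and 50.0% in muscle. Introns held 4 clusters in C2C12 (21.1%, against 60.4% over all genes), 17 in heart (34.7%, against 58.6%) and 3 in muscle (16.7%, against 43.2%). The intron clusters came from Ccnd3, Cdk6 and Rb1, whose introns are long, apart from the single one in Cdkn1b. None of the 86 clusters had its midpoint in a 5′ UTR. Clusters of 1 gene share their transcript and its expression, so they are not independent of each other, and these shares were not tested.

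Overlapping clusters of the 9 genes merged into 65 stretches, of which 51 were found in 1 library (78.5%), 11 in 2 and 3 in all. Over all genes 76.9% of 56099 stretches were found in 1 library, near the value of the 9 genes. For the 3′ UTR clusters of all genes it was 61.9% of 18537 stretches, and most clusters of the 9 genes lay in 3′ UTRs. The 9 genes were not compared with a background of the same mix of gene parts, here or in the overlaps below. Of the C2C12 clusters, 8 of 19 overlapped a heart cluster (42.1%, against 33.9% of the whole C2C12 library) and 4 overlapped a muscle cluster (21.1%, against 25.0%). Of the heart clusters, 8 of 49 overlapped one of C2C12 (16.3%, against 4.19%) and 10 overlapped one of muscle (20.4%, against 30.9%). Of the muscle clusters, 4 of 18 overlapped one of C2C12 (22.2%, against 5.29%) and 10 overlapped one of heart (55.6%, against 52.8%). These shares depend on how many clusters the other library has in the same genes. The 9 genes had 19 clusters in C2C12 against 49 in heart, whereas the libraries had 5115 against 42263. The higher shares overlapping C2C12 therefore do not show more sharing of sites. Of the 8 heart clusters that overlapped one of C2C12, 4 were in Ccnd1.

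UGU, searched on the strand of the cluster, was present in 17 of 19 clusters in C2C12, in all 49 in heart and in all 18 in muscle. Over all clusters it was present in 86.4% in C2C12, 98.3% in heart and 98.4% in muscle. The clusters of the 9 genes had 6.33 UGU per 100 nt in C2C12 (8.09 over the library), 7.85 in heart (8.79) and 6.96 in muscle (7.86). The longer run UGUGUG was in 4 clusters in C2C12, 14 in heart and 1 in muscle, or 21.1%, 28.6% and 5.56% in that order, against 18.6% of all clusters in C2C12, 28.7% in heart and 22.9% in muscle. UGUUUGUUUGU was in 0 clusters in C2C12, 2 in heart and 1 in muscle, against 4.40% of all clusters in C2C12, 3.64% in heart and 4.44% in muscle. Apart from the Ccnd2 site described above, it lay in 1 Rb1 intron cluster of heart. The library values for all these motifs take in every gene part, whereas most clusters of the 9 genes lay in 3′ UTRs. They are therefore not matched, and no difference in motif content was tested.

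A list of 40 other cell-cycle genes, drawn up around the same step, was examined in the same way. Of these, 26 had a cluster in any library and 14 could not be tested. The list took in Ccnb1 and Cdk1, which are also counted among the proliferation markers below. The cyclins, kinases, INK4 inhibitors, E2F and DREAM components, and factors that degrade or induce them on this list included 11 genes with a cluster in C2C12, 21 in heart and 15 in muscle. They held 20 clusters or 0.391% of the C2C12 library, 154 or 0.364% of the heart library and 87 or 0.350% of the muscle library. Of the 26, 0 passed in any pair, in either direction, by Fisher's exact test over all clusters or over 3′ UTR clusters, which is near the background given above. E2f3, an activating E2F, had the most in C2C12 with 4 (4 in heart, 9 in muscle). Gsk3b, a kinase known to mark cyclin D1 for export and decay, had 3 in C2C12, 20 in heart and 25 in muscle. Tfdp2, a partner of E2F proteins, had 0 in C2C12, 44 in heart and 9 in muscle (heart over muscle odds ratio 2.88, 1.39 to 6.70, Fisher's exact test, adjusted p = 0.101). Ambra1, which takes part in degrading D-type cyclins, had 2 in C2C12, 22 in heart and 6 in muscle. In C2C12, Cdk2, Rbl1 and Lin9 also had 2 each, with 0 in heart and muscle except 1 Rbl1 cluster in heart. The INK4 inhibitors, which block CDK4 and CDK6 directly, had 0 clusters in C2C12, 2 in heart, in 2 of the 4 genes, and 0 in muscle.

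Markers of the cell types that the sources could hold were counted in the same way and not tested. Proliferation markers had clusters for 5 of 12 genes in C2C12 (8 clusters, 0.156% of the library), 0 of 12 in heart and 1 of 12 in muscle (1 cluster, 0.00403%), with Mki67 and Pcna at 0 in every library. Myoblast markers were bound for 2 of 6 genes in C2C12, 2 in heart and 3 in muscle. Myod1 had 2 clusters in C2C12, 0 in heart and 1 in muscle, and Myf5, Pax7 and Cdh15 were at 0 throughout. Heart muscle markers held 0.0391% of the C2C12 library, 0.864% of the heart library and 0.0161% of the muscle library. Skeletal muscle markers held 0 clusters in C2C12, 0.0402% of the heart library and 0.439% of the muscle library. Endothelial markers were bound for 0 of 8 genes in C2C12, 8 in heart and 5 in muscle (0, 0.177% and 0.0926% of the library in that order). Smooth muscle and pericyte markers were bound for 2 of 5 genes in C2C12, 5 in heart and 4 in muscle. Fibroblast markers were bound for 3, 4 and 2 of 8 genes in the same order, and macrophage and immune markers for 0, 2 and 2 of 6. The part of cell makeup, of proliferation and of mRNA level in the differences for Ccnd1, Ccnd2 and Cdk6 was not tested.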

How the data were processed

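CELF1 CLIP-seq was performed once each on C2C12 myoblasts, heart ventricle and muscle. Per the study's methods, identical reads were collapsed, adapters were trimmed, and unique matches to mm9 and its splice junctions were kept (Bowtie and TopHat, versions not given in the sources used here). Clusters were then called per library by a Poisson test that takes account of gene expression and pre-mRNA length. The deposited files give the start, end, strand and Entrez identifier of each cluster, with no read counts or fold values, so the number of reads behind a cluster is unknown. A deposited score column held 1e-06 in every line and was not used. Starts were read as counted from 0 and are printed from 1.

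Clusters were placed by their midpoint on the NCBIM37 genome (the assembly of mm9) with GENCODE vM1 protein-coding transcripts, in the order 3′ UTR, coding exon, 5′ UTR, intron. Of 8037 identifiers, 7981 (99.3%) matched an annotated gene. Gene symbols were looked up by Entrez identifier in RefSeq names for GRCm38, from which no position was taken. For every gene with a cluster in either library of a pair, its clusters were set against the library's other clusters by a two-sided Fisher's exact test, over all clusters and over 3′ UTR clusters, with Benjamini-Hochberg adjustment over all genes tested and a threshold of 0.05. Shares have Clopper-Pearson intervals, and a count of 0 is given with the share of 3 clusters. Named genes were all 9 members, the other G1/S genes that passed or that were the 3 with the most clusters in a library (ties kept), and the 5 genes nearest to the member with the most clusters. The members and lists were chosen with earlier results of these data known. Tests were run in scipy 1.17.1, tables were handled in pandas 2.3.3 and numpy 2.4.6, sequences were read with pysam 0.24.0, and plots were drawn with matplotlib 3.10.9 under Python 3.11.15.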

Additional observations from a re-analysis of the deposited data

How the results depend on the processing

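With clusters less than 50 nt apart merged, the number of the 9 genes called fell to 1 (Ccnd1 lost) for C2C12 over muscle, and to 0 in both 3′ UTR comparisons of C2C12, where 0 genes passed in all. It was likewise 1 for C2C12 over muscle with clusters at least 40 nt wide, or with intron clusters left out, where Cdk6 was lost. With 50% of both clusters asked for, 4 of the 19 C2C12 clusters overlapped one of heart, and 4 of the 49 heart clusters one of C2C12. With at least 2 clusters asked for, 2 of the genes counted as bound in C2C12. With UGUU or GUGU in place of UGU, 12 clusters in C2C12, 41 in heart and 14 in muscle held the motif. Over all genes, calls for C2C12 over heart numbered 58, against 28 with wide clusters, 37 without the 1% of genes with the most clusters and 1 without introns. For C2C12 over muscle they numbered 44, against 19 with wide clusters, 5 without introns and 90 among genes with at least 3 clusters. For heart over muscle they numbered 137, against 5 without introns. In 3′ UTRs they numbered 1 for C2C12 over heart, against 2 with wide clusters, and 0 for heart over muscle, against 1 with wide clusters.

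Differences that changed sign were small and none had passed. They are differences in percent of the clusters counted under each setting, so they do not share a base. With wide clusters, they were 0.00147 for Ccnd2 and -0.0163 for Rb1 (C2C12 over heart), and for Cdkn1a (heart over muscle) 0.000683 over all clusters and 0.00663 in 3′ UTRs. With clusters merged, they were 0.00138 for Rb1 (C2C12 over muscle) and 0.000723 for Cdkn1b (heart over muscle). For heart over muscle, Ccnd1 gave 0.000119 without the 1% of genes with the most clusters, and without introns Ccnd1 gave 0.00731 and Ccnd3 -0.00137. Under both settings the Ccnd1 counts stayed at 5 in heart and 3 in muscle, so only the base had changed. With clusters opposite another gene left out, an alternative chosen after seeing the data, Rb1 gave 0.0115 (C2C12 over muscle) and 0.00851 (heart over muscle), and Ccnd1 gave -0.00173 in 3′ UTRs (heart over muscle). No paired analysis was possible because each group has a single library, and no library could be left out for the same reason.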
